A study of Mus musculus with 6 samples.

Results

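The respiratory chain of the mouse liver was followed through 109 genes of 21512 in the deposited table. They are 96 nuclear genes and the 13 protein genes of mitochondrial DNA. They were taken by symbol: names beginning Nduf, Sdha to Sdhd, Uqcr, Atp5, mt-Nd, mt-Co, mt-Cyt or mt-Atp, and Cox4 to Cox8 with a suffix. Of 111 symbols that matched, 2 marked as pseudogenes (-ps) were left out. The nuclear members comprised 37 genes of complex I, 8 of its assembly factors, 4 of complex II, 4 of its assembly factors, 8 of complex III, 18 of complex IV and 17 of the ATP synthase (complex V).

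RNA came from whole liver of 6 C57BL/6J mice with steatohepatitis brought on by 12 weeks of high-fat diet (HFD) and carbon tetrachloride (CCl4), which all 6 received. Throughout, 3 mice received the isotype control and the other 3 anti-PD-1 at intervals of 3 days; sex and age are not given in the labels used here. The sample titles name PD-1 for all 3 treated mice, while the treatment field reads Anti-PD-2 and Anti-PD-3 for treated replicates 2 and 3; the titles and the series design were followed. The comparison asks what blocking PD-1, an inhibitory receptor on activated T cells, does to liver transcripts while the disease develops. The labels number the samples within each group but do not tie a library to separate dissections or days, so the p-values measure the spread between these libraries.

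The respiratory chain sits in the inner mitochondrial membrane. Complexes I and II pass electrons from NADH and succinate to ubiquinone, complex III hands them to cytochrome c, complex IV passes them to oxygen, and the ATP synthase uses the resulting proton gradient to make ATP. Complex II is built from nuclear genes alone, whereas the other complexes mix nuclear subunits with subunits encoded by mitochondrial DNA. In the liver the chain supplies ATP for glucose and urea synthesis and reoxidises the carriers reduced by fatty acid oxidation.

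Some of the mitochondrial messages have near-identical copies in nuclear DNA, and this decided how their values had to be read, so the sequences are shown first. A block of mitochondrial DNA inserted in chromosome 1 is annotated as a row of pseudogenes, all on the minus strand in GENCODE M21 (build GRCm38). The first pair below is the start of mt-Co2 and of Gm28661 (chr1:24614885-24615565), identical over all 681 bases compared. The others are the start of mt-Nd3 and of Gm28438 (chr1:24612775-24613119), and the stretch of mt-Co1 that Gm29216 (chr1:24615706-24616197) matches. Capitals mark the bases that differ.
mt-Co2: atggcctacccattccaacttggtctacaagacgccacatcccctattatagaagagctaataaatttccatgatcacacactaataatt
Gm28661: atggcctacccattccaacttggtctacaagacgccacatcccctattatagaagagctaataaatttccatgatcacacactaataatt
mt-Nd3: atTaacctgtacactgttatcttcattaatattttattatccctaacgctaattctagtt
Gm28438: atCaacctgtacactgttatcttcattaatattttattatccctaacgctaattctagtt
mt-Co1: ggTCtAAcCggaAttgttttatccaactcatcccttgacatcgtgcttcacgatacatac
Gm29216: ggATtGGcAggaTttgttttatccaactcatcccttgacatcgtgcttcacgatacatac

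Counted from 1 at the mitochondrial gene's 5′ end, mt-Nd3 and its copy differ by T3C over 345 bases. mt-Co1 and Gm29216 differ by T1056A, C1057T, A1059G, A1060G, C1062A and A1066T over 492 bases. Gm10925 matched mt-Atp6 over 678 bases, Gm28437 matched mt-Co3 over 783 bases and Gm10222 matched mt-Nd4l over 294 bases, with no mismatch in any of the 3. Gm28439 (chr1:24611535-24612410) matched mt-Nd4 over 876 bases without a mismatch and has no values of its own here. A read from an identical stretch matches both places equally well.

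The coding sequences of mitochondrial DNA also overlap one another, which bears on the shortest members. In both runs below the capitals mark the bases shared by the 2 genes, 43 in the case of mt-Atp8 and mt-Atp6 and 7 in the case of mt-Nd4l and mt-Nd4.
mt-Atp8 and mt-Atp6: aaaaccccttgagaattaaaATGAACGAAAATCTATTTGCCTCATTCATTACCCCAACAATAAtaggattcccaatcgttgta
mt-Nd4l and mt-Nd4: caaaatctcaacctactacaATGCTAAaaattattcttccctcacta

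Values are CPM of a TMM-scaled library, that is, reads scaled to a common library total after the authors' scaling between libraries, and are given for control replicates 1, 2 and 3 and then anti-PD-1 replicates 1, 2 and 3. Recovered depth was 15528364 to 20779319 reads per library. Differences are log2 fold changes, anti-PD-1 minus control, on the log2(value + 0.5) scale, each with limma's moderated standard error (SE), from 3 libraries a group. This SE borrows from the spread of other genes of like level. It can exceed the spread of a gene's own libraries, as for mt-Co1. Hepatocyte markers were high in every library, with a summed value over 8 genes of 84884 to 108330 in control livers and 81461 to 99961 in treated livers. Immune markers were not even across libraries: the T and NK cell list of 6 genes summed to 2.46 to 3.51 in control livers and to 6.52 to 41.4 in treated livers, with the highest sum in anti-PD-1 replicate 1. Markers of Kupffer cells, the resident macrophages, had a negative log2 fold change in 6 of 6 genes, with a median of -1.70 and 5 at an unadjusted p under 0.05 by limma. DESeq2 called Cd163, Timd4 and Marco lower (adjusted p = 3.67e-06, 0.00316 and 0.00743). The summed Kupffer list was 153 to 358 in control livers and 148 to 197 in treated livers. The part of these cells in the members' values was not tested.

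No respiratory chain gene passed the test. Across the whole liver 1 of 13990 tested genes had an adjusted p under 0.05 by limma (0.00715%), and it was no member. Of the 96 nuclear members 91 reached the minimum level for testing (a value of at least 1 in at least 3 libraries), as did all 13 mitochondrial ones. At an unadjusted p under 0.05, limma gave 12 nuclear members lower (13.2% of 91, against a background of 6.24% of all tested genes) and 0 higher (background 5.04%). It gave 2 mitochondrial members lower and 0 higher. On the recovered reads edgeR and DESeq2 also called 0 members, against a DESeq2 background of 1.05% of genes called higher and 0.779% lower. At an unadjusted p under 0.05, edgeR gave 13 nuclear members lower (background 5.95%) and 0 higher (background 5.68%). DESeq2 likewise gave 13 lower (background 5.18%) and 0 higher (background 6.25%).

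The direction was shared widely among the nuclear members although each difference was small. The log2 fold change was negative in 79 of 91 (86.8%, against 49.5% of all tested genes), with a median of -0.14, while the median of all tested genes was 0.00. In 18 of 91 nuclear members every anti-PD-1 library lay below every control library (19.8%, against a background of 9.98%), and in 0 every one lay above (background 7.13%). The 18 include Ndufb4c, a pseudogene described below. They also include Atp5l, whose groups overlapped once its pseudogene copies were added (44.6 to 66.3 in control livers, 42.7 to 47.0 in treated livers). Among the mitochondrial genes 10 of 13 were negative with a median of -0.06, and the groups were fully separated in 1, which was lower. In whole tissue, fewer cells that carry these messages and less message per cell cannot be told apart.

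**Figure D1:**
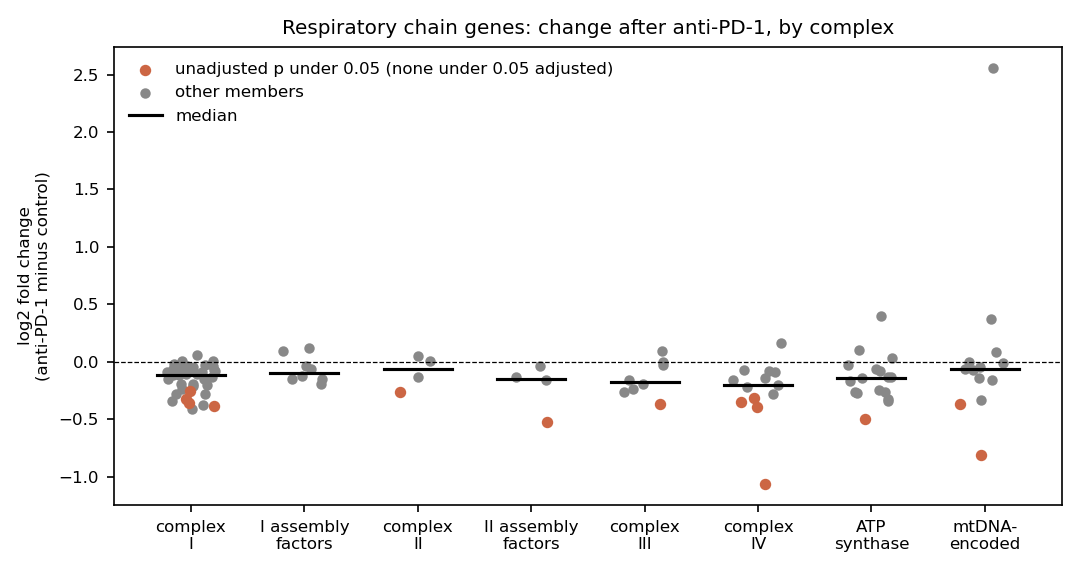
Log2 fold change (anti-PD-1 minus control, y axis) of each tested respiratory chain gene, grouped by complex; each point is 1 gene and the bars are medians. The medians of all 8 columns lie below 0, at most 0.20 below it; the point at 2.56 is mt-Co2, whose identical nuclear copy held nearly all reads of the pair.

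The libraries of each group differed among themselves. Against the control mean, the median nuclear member stood at 0.01, -0.14 and 0.14 (log2) in control replicates 1 to 3 and at -0.21, -0.19 and -0.01 in anti-PD-1 replicates 1 to 3. Anti-PD-1 replicate 3 therefore lay above control replicate 2, and the groups overlapped. The ordering was common to most members: control replicate 3 was the highest control in 75 of 91 nuclear members and control replicate 2 the lowest in 73. Anti-PD-1 replicate 3 was the highest treated library in 74 of 91. Over all tested genes these libraries held those places for 33.0%, 35.6% and 31.6% of genes.

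The size of the group difference accordingly turned on which libraries were counted. The 12 nuclear members lower at an unadjusted p under 0.05 became 22 without control replicate 2 (background 5.36%) and 2 without control replicate 3 (background 4.77%). Leaving out anti-PD-1 replicate 1 gave 5 (background 7.06%), and leaving out its replicate 2 gave 4 (background 4.92%). With the replicate number as a block there were 20 lower (background 7.4%) and 1 higher (background 7.75%), and 0 members passed the adjusted threshold (background 0.193% higher and 0.0929% lower). With quantile scaling 24 were lower (background 7.98%). The nuclear median moved to -0.23 without control replicate 2 and to -0.07 without control replicate 3. In each of these settings most nuclear members stayed negative, from 62 of 91 without control replicate 3 to 85 without anti-PD-1 replicate 3. As a share of all gene reads, nuclear members took 0.946, 0.87 and 0.984% in control livers and 0.849, 0.821 and 0.858% in treated livers. These shares did not overlap, whereas the summed TMM-scaled values did, at 9405, 8332 and 10107 against 7815, 8490 and 9220.

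Complex I, the entry point for NADH, had 34 of 37 genes negative and a median log2 fold change of -0.12. Its 7 nuclear core subunits, which hold the flavin and the iron-sulphur clusters, had a median of -0.05 and none at an unadjusted p under 0.05. The 30 accessory subunits, which surround the core, had a median of -0.15. Of these, 4 (13.3%) were at that level, all lower, against a background of 6.24% of all tested genes. The 30 include Ndufb4c, a pseudogene described below.

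Ndufb2, an accessory subunit of the membrane arm, gave 42.1, 35.7 and 44.0 in control livers and 29.2, 30.2 and 35.1 in treated livers. The treated libraries were all lower, though control replicate 2 and anti-PD-1 replicate 3 nearly met, and the log2 fold change was -0.36 (SE 0.12, limma adjusted p = 0.355). Ndufb8, another membrane-arm subunit, gave 81.0, 78.7 and 90.2 against 70.7, 66.8 and 71.7. Those groups were also apart, with a log2 fold change of -0.25 (SE 0.10, limma adjusted p = 0.392). Ndufa5, in the arm that faces the matrix, and the small subunit Ndufc1 had log2 fold changes of -0.32 and -0.39, but in each the highest treated library overlapped the lowest control. On the other side, Ndufs7 (0.06, SE 0.13) and Ndufa10 (0.01, SE 0.11) had values slightly higher in treated livers, within their spread.

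The complex I assembly factors, which build the enzyme without remaining in it, had 6 of 8 negative and none at an unadjusted p under 0.05. Their positive members were Ndufaf6 (0.12, SE 0.16) and Ndufaf3 (0.10, SE 0.16). Ndufb4c, counted here by its symbol, is annotated as a processed pseudogene identical to Ndufb4 over 390 bases, so reads of the pair cannot be assigned with certainty. It held 29.3% of their summed value.

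Complex II, succinate dehydrogenase, is the smallest complex and had no common direction among its subunits. Sdhd, a membrane anchor, read 118, 102 and 119 in control livers and 88.6, 94.0 and 98.8 in treated livers. All treated libraries were lower, with a log2 fold change of -0.27 (SE 0.10, limma adjusted p = 0.397). The flavoprotein Sdha differed by -0.13 (SE 0.13), the iron-sulphur subunit Sdhb by 0.05 (SE 0.12) and the other anchor, Sdhc, by 0.01 (SE 0.11). The smallest p among all members belonged to a complex II assembly factor, Sdhaf1, which helps place iron-sulphur clusters in Sdhb. It read 7.66, 7.63 and 7.89 in control livers and 5.09, 4.86 and 5.69 in treated livers. The groups were well separated for this gene, a 1.48-fold lower mean after treatment (log2 fold change -0.53, SE 0.14), and the limma adjusted p was 0.27. The other factors, Sdhaf2, Sdhaf3 and Sdhaf4, had log2 fold changes of -0.04, -0.16 and -0.14.

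Complex III had 7 of 8 nuclear genes negative, with a median of -0.18. Its small subunit Uqcr10 read 71.8, 69.2 and 90.2 in control livers and 54.9, 61.2 and 61.4 in treated livers. The treated libraries were all lower (log2 fold change -0.37, SE 0.12, limma adjusted p = 0.348). The large core proteins did not share this: Uqcrc1 differed by 0.10 (SE 0.12) and Uqcrc2 by -0.01 (SE 0.12), with overlapping groups. Uqcrq, with the highest level among the complex's nuclear members by value, differed by -0.24 (SE 0.14), also with overlap. Cyc1, another complex III subunit, lies outside the symbol rule and is counted below with the genes for electron carriers. It differed by -0.04 (SE 0.11).

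Complex IV, cytochrome c oxidase, held the largest share of nuclear members with separated groups, 6 of 13 tested, all lower (46.2%, against a background of 9.98%). The scarce Cox7a1, described below, was among the 6. The median of the 13 was -0.20 and 12 of 13 were negative. The catalytic core of this complex is mitochondrially encoded, and the nuclear subunits surround it. Cox7c, a small nuclear subunit, read 180, 167 and 205 in control livers and 151, 118 and 153 in treated livers (log2 fold change -0.39, SE 0.14, limma adjusted p = 0.36). Cox7b read 167, 133 and 178 against 126, 115 and 131 (-0.35, SE 0.13, limma adjusted p = 0.38). In both genes the treated libraries all lay lower, in Cox7b by only a small margin. Ndufa4, named for complex I but now counted as a complex IV subunit, read 177, 169 and 195 against 136, 135 and 163 (-0.32, SE 0.11, limma adjusted p = 0.37). Cox6b1 and Cox8a, the remaining separated pair besides Cox7a1, had log2 fold changes of -0.22 (SE 0.10) and -0.20 (SE 0.11). Cox4i1, the complex's most abundant nuclear gene by value, differed by -0.16 (SE 0.11) with overlap. The exception in direction was Cox7a2l, which joins complexes III and IV into supercomplexes, at 0.17 (SE 0.13).

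**Figure D2:**
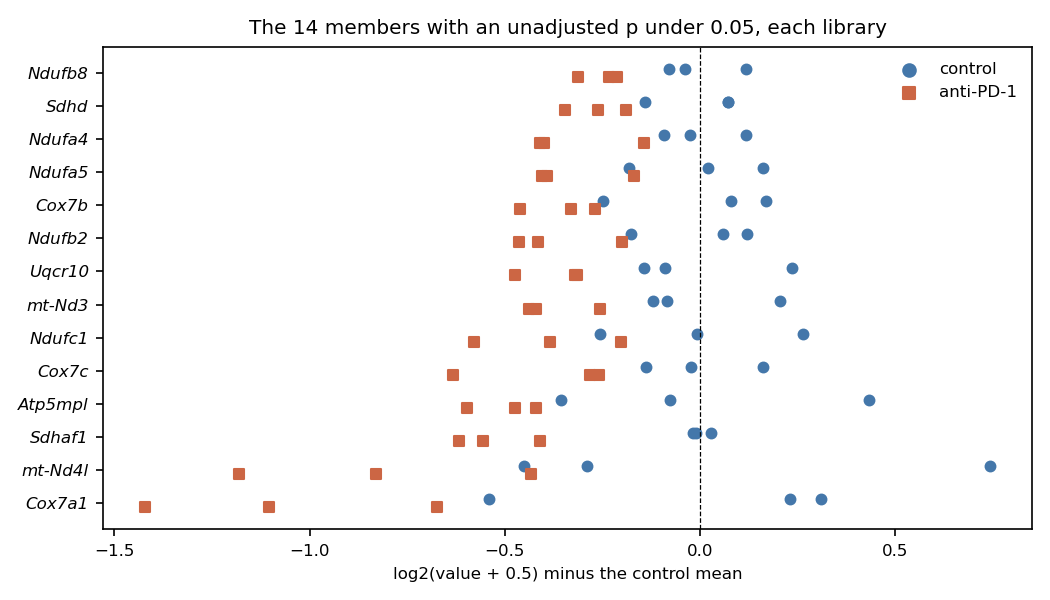
Log2(value + 0.5) of each library minus the control mean (x axis) for the 14 members with an unadjusted p under 0.05; circles are the 3 control libraries and squares the 3 anti-PD-1 libraries. For Sdhaf1 the control points lie together and apart from the squares, while for mt-Nd4l, Ndufa5 and Ndufc1 the groups overlap.

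Several complex IV subunits exist as a general form and a second form of heart, muscle, brown fat, lung or testis, and only the general forms were abundant in these livers. Cox4i2, Cox6a2, Cox6b2, Cox8b and Ndufa4l2 stayed below the level for testing, at no more than 1.46 in any library. Cox7a1, the heart and skeletal muscle form of subunit VIIa, was low but tested, and read 2.48, 2.33 and 1.16 in control livers and 1.01, 0.4 and 0.621 in treated livers. Its log2 fold change was -1.07 (SE 0.33, limma adjusted p = 0.316), while the general form Cox7a2, read at 134, 99.5 and 146 against 94.7, 95.01 and 120, differed by -0.28 (SE 0.17).

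The highest Cox7a1 values were in the libraries that also held messages of other tissues. Myh6, a cardiac myosin, read 12.2, 7.85 and 0 in control livers and 0 in all 3 anti-PD-1 libraries. Tnnt2, cardiac troponin T, read 2.97, 2.92 and 0.251 against 0.384, 0.466 and 0.259. Ucp1, the uncoupling protein of brown fat, read 13.8 in control replicate 2 and at most 0.0517 elsewhere. The 8 muscle markers together summed to 0.754 to 17.05 in control livers and 1.40 to 1.49 in treated livers, none of them reaching the level for testing. Most of the sum in control replicates 1 and 2 was Myh6. Of the skeletal muscle markers, Ckm read 1.08, 0.433 and 0 against 0.144, 0 and 0. The others did not follow: Acta1, Myh1, Myh4 and Tnnt3 had higher means in treated livers, and Mylpf had means of 0.425 and 0.424. The 5 brown fat markers summed to 5.13 to 42.7 and 3.12 to 6.92. The 42.7 was control replicate 1 and was Elovl3 alone, which is also a liver gene, with Ucp1, Cidea, Adipoq and Plin1 at 0 there. Adipoq was at 0 in every library but control replicate 2. Cox6a2 (0.378, 0.433 and 0 against 0.0961, 0.0666 and 0) and Cox8b (0.27, 1.46 and 0 against 0, 0.0666 and 0.104) were likewise highest in control replicates 1 and 2. In control replicate 3, where Myh6 was at 0, Cox7a1 was 1.16, close to the 1.01 of anti-PD-1 replicate 1. The part of these other tissues in the Cox7a1 difference was not tested.

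**Figure D3:**
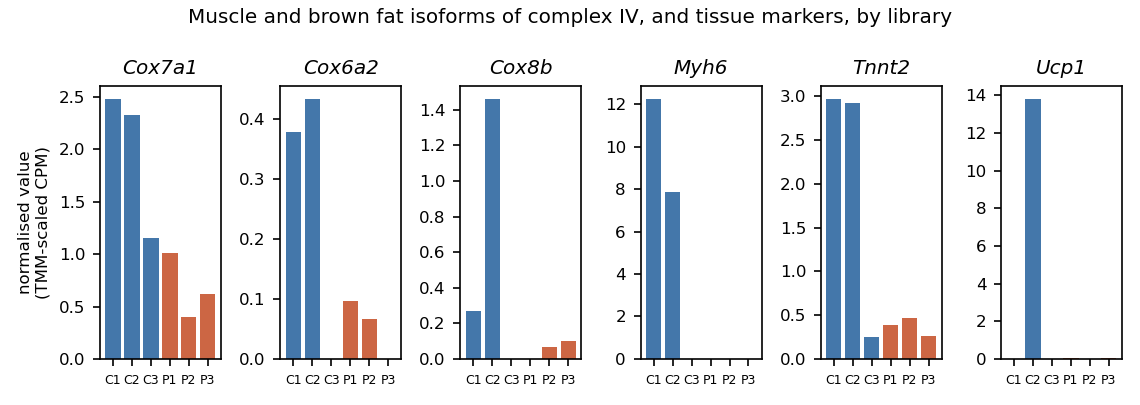
Normalised value (TMM-scaled CPM, y axis, a separate scale for each gene) in control replicates C1 to C3 and anti-PD-1 replicates P1 to P3 for 3 muscle or brown fat forms of complex IV subunits and 3 tissue markers; each bar is 1 library. Cox6a2, Cox8b, Myh6 and Tnnt2 are highest in C1 and C2, and Ucp1 reaches 13.8 in C2 alone.

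The ATP synthase had 14 of 17 genes negative and a median of -0.14. Its catalytic subunit Atp5b was the most abundant nuclear member by value and per kilobase, and read 1170, 1057 and 1177 in control livers and 996, 1145 and 1200 in treated livers. These groups overlapped and the log2 fold change was -0.03 (SE 0.14). Atp5a1, the other large subunit of the catalytic head, differed by -0.06 (SE 0.13). Of the 17 genes 1, the small membrane subunit Atp5mpl, was lower at an unadjusted p under 0.05 (5.88%, against a background of 6.24%). Atp5mpl read 32.9, 27.0 and 47.0 against 24.8, 22.8 and 25.8, with the groups apart (log2 fold change -0.50, SE 0.19, limma adjusted p = 0.402). Without control replicate 3 the difference was -0.28. The stator subunit Atp5h (-0.27, SE 0.12) was also separated, and Atp5e, of the catalytic head, differed by -0.32 (SE 0.22) with overlap. The 3 genes that encode the ring subunit c had overlapping groups apart from Atp5g1: Atp5g1 differed by -0.25 (SE 0.11), Atp5g3 by -0.26 (SE 0.17) and the scarce Atp5g2 by 0.10 (SE 0.35). Atp5s, a coupling factor, had the largest positive difference of the nuclear members, with 3.99, 3.90 and 5.08 in control livers and 5.00, 5.46 and 7.24 in treated livers (0.40, SE 0.20, limma adjusted p = 0.492), and its groups overlapped.

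Related genes lie outside the symbol rule because the table uses other names for them. Usmg5, a further small ATP synthase subunit, read 50.9, 52.2 and 64.7 against 43.5, 41.3 and 36.2, all lower after treatment (log2 fold change -0.46, SE 0.13, limma adjusted p = 0.279). Usmg5 was chosen after its values were seen. Atpif1, the inhibitor of the ATP synthase, had means of 16.8 and 18.7 with overlapping groups.

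Across the nuclear members the differences followed the length of the message. The 45 members at or under the median length of 780.5 bases had a median log2 fold change of -0.21 and 43 of them were negative. The 45 longer ones had a median of -0.08 with 35 negative. Over 90 members with a known length, log2 length and log2 fold change had a Spearman rho of 0.52 and a Pearson r of 0.43, against 0.06 and 0.04 over 12423 tested genes; these describe genes that share the same 6 libraries. Other short genes also had negative medians, though less so. Among genes of up to 500 bases the median was -0.34 in 13 members and -0.17 in 94 other genes, and from 501 to 750 bases it was -0.20 in 29 members and -0.07 in 307 other genes. From 751 to 1000 bases it was -0.13 against -0.03, and from 1001 to 1500 bases -0.04 against -0.03. Members lay below other genes again at 1501 to 2000 bases (-0.09 against 0.01), at 2001 to 3000 bases (-0.05 against 0.00) and beyond (-0.06 against 0.01), in bins of 10, 6 and 3 members. Length also followed single libraries: against the control mean, rho over the members was 0.20, 0.24 and -0.44 in control replicates 1 to 3 and 0.34 to 0.47 in the anti-PD-1 libraries. The median length of all tested genes was 2827 bases, and the part of length in the members' lower values was not tested.

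**Figure D4:**
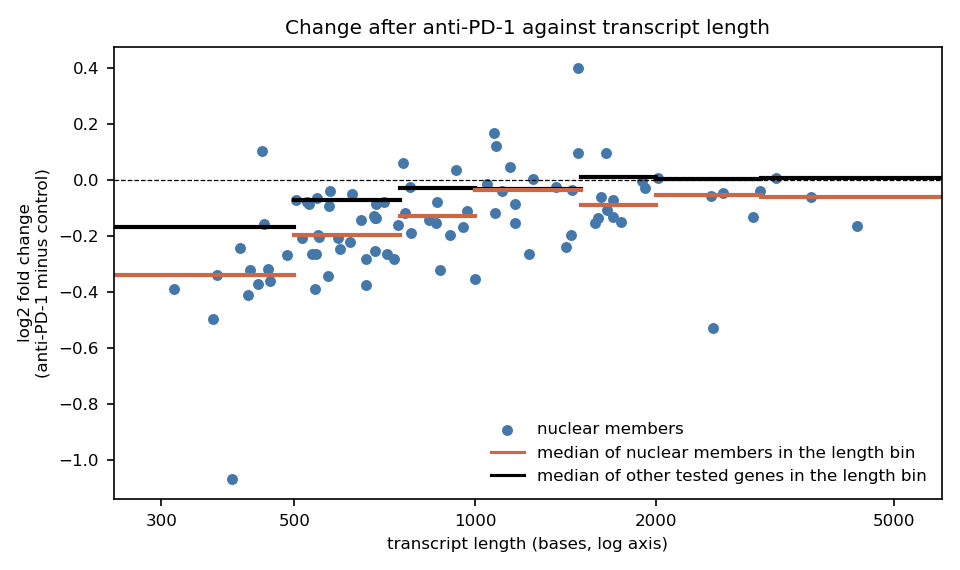
Log2 fold change (anti-PD-1 minus control, y axis) against transcript length in bases (log axis) for the nuclear members; each point is 1 gene, and lines give the median of members and of other tested genes in each length bin. Members of up to 500 bases have a median of -0.34 against -0.17 for other genes. The 2 lines meet from 1001 to 1500 bases, and the members' line lies below the other in every other bin.

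Most of the 13 mitochondrial messages exceeded every nuclear member in level per kilobase; mt-Nd4l, mt-Nd6, mt-Atp8 and mt-Co2, as listed, did not. mt-Co1, the catalytic subunit of complex IV, had a listed level of 11415 per kilobase, mt-Co3 4260 and mt-Cytb, the complex III cytochrome, 3122. With the copies described below added, mt-Co3 came to 8114 per kilobase, mt-Co2 to 4568 and mt-Atp6 to 4428, all above mt-Cytb. The highest nuclear member, Atp5b, had 587 per kilobase. The 13 genes together took 3.49, 3.61 and 3.49% of gene reads in control livers and 3.64, 3.14 and 3.42% in treated livers. The treated libraries lay on both sides of the controls, with means of 3.53% ± 0.0682 and 3.40% ± 0.248 (SD, n = 3 each). The difference of -0.129 percentage points became -0.000923 when anti-PD-1 replicate 2 was dropped and -0.249 when its replicate 1 was. Reads of mitochondrial members per read of nuclear members were 3.55 to 4.15 in control livers and 3.83 to 4.29 in the treated libraries. This ratio and the shares above leave out reads listed under the copies. With the copies added, the shares were 4.32, 4.63 and 4.28% in control livers and 4.61, 3.93 and 4.21% in treated livers.

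Most mitochondrial genes differed little between the groups. mt-Co1 read 16462, 18158 and 16759 in control livers and 18078, 17432 and 18925 in treated livers (log2 fold change 0.08, SE 0.34). mt-Cytb differed by -0.14 (SE 0.20). Of the complex I subunits, mt-Nd1 differed by 0.00 (SE 0.20), mt-Nd2 by -0.05 (SE 0.16), mt-Nd4 by -0.07 (SE 0.18), mt-Nd5 by -0.06 (SE 0.19) and mt-Nd6, the only one encoded on the light strand, by -0.16 (SE 0.39). mt-Nd3 was the gene with separated groups, at 926, 949 and 1160 in control livers and 842, 752 and 742 in treated livers (-0.37, SE 0.14, limma adjusted p = 0.392). Its chromosome 1 copy differs by a single base and has no values of its own here. The median of the 13 genes was -0.12 without control replicate 1 and turned to 0.05 without control replicate 3.

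For 4 mitochondrial genes a large part of the reads of their sequence was listed under a copy. mt-Co2, a core subunit of complex IV, was listed at 0, 13.8 and 0 in control livers and 12.3, 8.19 and 6.05 in treated livers. Its nuclear copy Gm28661, identical as printed above, was listed at 3059, 3080 and 3504 and then 3003, 2788 and 3270. The copies held 99.8% of the sum, and the log2 fold change of mt-Co2 was 2.56 (SE 1.18, limma adjusted p = 0.468) alone and -0.09 with the copies added. Left to itself, mt-Co2 became the 1 member with an adjusted p under 0.05 when control replicate 2 was left out (limma adjusted p = 0.0436).

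mt-Atp6, a proton channel subunit of the ATP synthase, showed the same division. It was listed at 741, 354 and 893 in control livers and 433, 559 and 946 in treated livers. With its copy it came to 3102, 3112 and 3187 and then 2879, 2662 and 3153. The summed values were far more even than the listed ones, with a control mean of 3133 ± 46.6 (SD, n = 3) against 663 ± 278 (SD, n = 3), and 78.3% of the sum lay in the copy. The treated group overlapped the controls on both counts.

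mt-Nd4l, a small membrane subunit of complex I, had the largest negative difference of the mitochondrial genes as listed. It read 54.8, 61.3 and 126 in control livers and 55.5, 32.8 and 42.0 in treated livers, a log2 fold change of -0.81 (SE 0.32, limma adjusted p = 0.408) that became -0.44 without control replicate 3. With its copy the values were 80.3, 150 and 191 against 134, 102 and 115, and the difference was -0.18. mt-Co3 had 47.5% of its sum in a copy, and its difference went from -0.33 (SE 0.28) to -0.14. mt-Co1 had 0.276% of its sum in 2 copies. Gm29216 covers part of the gene, and Gm13340 aligns over all 1545 bases at 97.6% identity. mt-Atp8, which overlaps mt-Atp6 for 43 of its 204 bases, was listed at no more than 10.04 in any library and differed by 0.37 (SE 0.29).

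**Figure D5:**
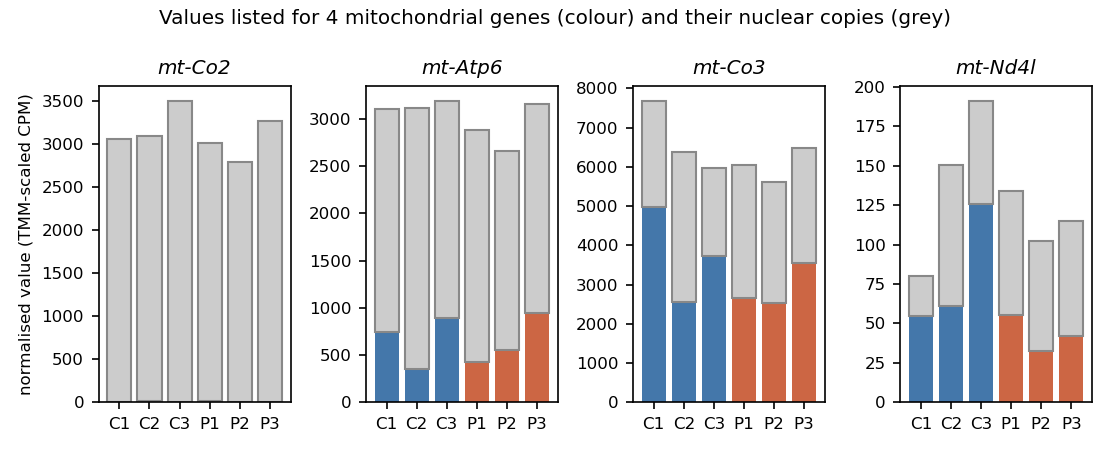
Normalised value (TMM-scaled CPM, y axis from 0, a separate scale for each gene) of 4 mitochondrial genes in control replicates C1 to C3 and anti-PD-1 replicates P1 to P3; the coloured part of a bar was listed under the mitochondrial gene and the grey part under its nuclear copies. Nearly all of mt-Co2 and 78.3% of mt-Atp6 lie in the grey part.

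Genes listed as serving the chain, all outside the symbol rule and with Cyc1 of complex III among them, showed less of a common direction. None was called by limma. Of 44 other assembly factors 30 were negative, with a median of -0.08. Every treated library lay below every control in 10 (22.7%, against a background of 9.98% and 19.8% of nuclear members). In 1 every one lay above (2.27%, background 7.13%). At an unadjusted p under 0.05, limma gave 5 lower (11.4%, background 6.24%) and 0 higher (background 5.04%). They included Cox19, a factor in copper delivery to complex IV, at 25.7, 22.7 and 27.8 against 17.8, 17.3 and 18.2 (log2 fold change -0.50, SE 0.12, limma adjusted p = 0.244, DESeq2 adjusted p = 0.0489). Cmc2 (-0.56, SE 0.17) and Tmem126b (-0.50, SE 0.16), which serve complexes IV and I, had separated groups as well. Of 78 mitochondrial ribosomal proteins 47 were negative, with a median of -0.05. At an unadjusted p under 0.05, 3 were lower, Mrps6 (-0.60), Mrpl49 (-0.33) and Mrpl34 (-0.32). That share, 3.85%, was below the background of 6.24%.

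The genes that copy and read mitochondrial DNA stood near 0: 15 of 29 were negative and the median was 0.00. Tfam, the packaging and transcription factor, differed by -0.07 (SE 0.11), the RNA polymerase Polrmt by 0.10 (SE 0.14) and the RNA-binding protein Lrpprc by 0.09 (SE 0.14). The helicase Twnk was lower at 24.0, 19.7 and 19.5 against 15.7, 16.2 and 14.2 (-0.44, SE 0.13, limma adjusted p = 0.3). Trmt10c and Mterf4 differed by -0.33 and -0.28. Of 24 genes for electron carriers, ubiquinone synthesis and dehydrogenases that feed the chain, 15 were negative, with a median of -0.04. The mobile carrier Cycs differed by -0.09 (SE 0.13), whereas Coq10b (1.15, SE 0.46) and Prodh (0.37, SE 0.14) were the 2 higher and Coq3 (-0.32, SE 0.13) was the 1 lower at an unadjusted p under 0.05. That is 8.33% higher (background 5.04%) and 4.17% lower (background 6.24%). The groups of Coq10b overlapped, and without control replicate 1 Coq10b differed by 0.58 and Prodh by 0.23.

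Among 18 genes of the citric acid cycle and pyruvate dehydrogenase 8 were negative and the median was 0.01. Citrate synthase, Cs, read 188, 196 and 192 in control livers and 162, 148 and 147 in treated livers, with the groups apart (-0.33, SE 0.09, limma adjusted p = 0.275). Dlat, a pyruvate dehydrogenase subunit, differed by -0.41 (SE 0.12), and Fh1, fumarase, by 0.39 (SE 0.19) with overlapping groups. Of 17 carriers and import proteins 10 were negative, with 0 at an unadjusted p under 0.05 (background 6.24% lower and 5.04% higher). The 3 with the smallest p, Vdac2, Tomm40 and Slc25a3, had log2 fold changes of 0.18, 0.30 and 0.17.

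The regulators of nuclear respiratory genes included the largest positive differences of these lists. Ppargc1a, the coactivator PGC-1 alpha, read 18.2, 61.9 and 68.1 in control livers and 99.6, 171 and 165 in treated livers. All treated libraries lay higher (log2 fold change 1.72, SE 0.48, limma adjusted p = 0.279), and without control replicate 1 the difference was 1.12. Its relative Ppargc1b (1.05, SE 0.33) and Gabpb1, a subunit of the ETS-family factor GABP (0.80, SE 0.21, limma adjusted p = 0.269, DESeq2 adjusted p = 0.0253), were also higher in every treated library. Gabpb2, another GABP subunit (-0.25, SE 0.10), and Yy1 (-0.24, SE 0.09) were lower in every treated library. These 2 were named after their values were seen. At an unadjusted p under 0.05, limma gave 3 regulators higher (17.6%, background 5.04%) and 2 lower (11.8%, background 6.24%). The DNA-binding factors Nrf1 and Gabpa differed by -0.09 (SE 0.13) and -0.04 (SE 0.10), and over the 17 regulators 9 were negative with a median of 0.00. Beside these values the nuclear respiratory chain genes had a median of -0.14.

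The promoters of members were searched for the letters that NRF1 and ETS-family factors are known to bind, since those factors act on nuclear respiratory genes. The windows ran over the 250 bases before the start site (RefSeq, GRCm38.p6), which matched 77 members, and both strands were read. For NRF1 the letters were GCGCA, any base and GCGC, present in 14 of 77 (18.2%, against 4.23% of 27025 genes). For the ETS family they were CCGGAAG, present in 16 (20.8%, against 7.83%). Both were in 3: Atp5h, Cox6a1 and Sdhd. The windows below belong to members described above and are printed on the strand of the gene, and capitals mark the motif in either orientation: Sdhd (chr9:50603860-50603959, minus strand), Ndufa5 (chr6:24527663-24527762, minus strand) and Cox6b1 (chr7:30626115-30626214, minus strand).
Sdhd: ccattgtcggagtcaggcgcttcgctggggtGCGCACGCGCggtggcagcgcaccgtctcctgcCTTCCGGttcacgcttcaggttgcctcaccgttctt
Ndufa5: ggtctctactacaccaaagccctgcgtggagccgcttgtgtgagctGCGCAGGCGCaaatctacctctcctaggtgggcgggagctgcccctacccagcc
Cox6b1: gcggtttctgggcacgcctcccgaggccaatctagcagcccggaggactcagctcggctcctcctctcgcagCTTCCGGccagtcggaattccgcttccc

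The differences of members with and without these letters lay side by side. The median log2 fold change was -0.12 in 14 tested members with the NRF1 letters and -0.15 in 61 without them. It was -0.18 in 16 with the ETS letters and -0.14 in 59 without. Of 11 nuclear members that were lower at an unadjusted p under 0.05 and had a window, 2 held the NRF1 letters and 1 the ETS letters. A match describes the sequence and is not evidence of binding.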

How the data were processed

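Per the labels' protocols, liver RNA was depleted of ribosomal RNA and made into directional libraries. Tools listed in the submitters' processing notes are Trimmomatic 0.38, RSEM 1.3.0, edgeR and Bowtie2, with GRCm39 and no roles. The deposited signal is 1 value per gene and library. All values were whole multiples of 1 read (100%, within 0.001 read), and TMM factors recomputed from them gave the same scale, which makes the values TMM-scaled CPM. Reads assigned to near-identical sequences were left as the authors had them. A table of names gave symbols to 21407 identifiers; rows without a symbol took 1.20 to 2.70% of reads. A limit of 3 reads is 0.144 to 0.2 units, which covers counting error only.

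Genes with a value of at least 1 in at least 3 libraries (13990) were fitted with limma 3.58.1 (trend) in R 4.3.3 on log2(value + 0.5), two-sided, with Benjamini-Hochberg adjustment at 0.05. With 3 libraries a group, the smallest exact permutation p is 0.1. Recovered reads were also fitted with edgeR 4.0.16 and DESeq2 1.42.0. The fit was tested on simulated data. Alternatives changed the pseudocount, filter, scaling, tool and block and left out each library. Adding the values of copies was chosen after seeing the data; copies were found by BLAST 2.17.0 (95% identity over 80% of the shorter transcript, at least 150 bases). Lengths are those of each gene's shortest principal protein-coding transcript in the GENCODE M21 basic set (GRCm38). Where none was marked principal, the shortest protein-coding one was taken. Lengths were known for 108 members.

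The labels number replicates 1 to 3 in both groups. Same-numbered libraries had deviations from their group means that correlated at 0.149, 0.135 and 0.251. A pairing by number would rest on these values alone, since the labels give none. The main fit therefore used no pairing, and the replicate number entered as a block only in an alternative fit. Named genes were the 13 mitochondrial genes, the 10 nuclear members with the smallest unadjusted p in each direction, the complex II subunits, isoform sets, the highest gene of each complex, 3 genes per pathway list and 5 fixed genes; the text gives a part. Members and lists were chosen with earlier results of these data known.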

Additional observations from a re-analysis of the deposited data

How the results depend on the processing

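The number of genes called by limma, 1, was 0 with edgeR, 256 with DESeq2, 40 with the replicate block and 0 to 30 when each library was left out. The number of members called stayed at 0 in all settings except without control replicate 2, where it was 1 (range 0 to 1). Nuclear members lower at an unadjusted p under 0.05 numbered 24 with quantile scaling, 20 with the replicate block and 2 to 22 on leaving out each library; those higher numbered 1 with no filter, 1 with the block and 0 to 1 on leaving out. Mitochondrial members lower numbered 1 with the block, 1 with copies added and 0 to 2 on leaving out, and those higher 1 with a pseudocount of 0.1, 1 with the block and 0 to 1. The difference in the share of mitochondrial reads was -0.244 when the 10 most abundant other genes were left out of the total and -0.249 to -0.000923 on leaving out each library. The cause of these shifts was not tested.

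Of 73 single genes, 56 kept their direction in every setting run. With quantile scaling Ndufa10 turned to -0.0418, Sdhb to -0.0037, Sdhc to -0.0316 and Atp5d to -0.0167, and with copies added mt-Co2 turned to -0.0879. On leaving out each library the log2 fold change ranged from -0.186 to 0.09 for mt-Nd1, -0.157 to 0.0459 for mt-Nd2, -0.232 to 0.0302 for mt-Nd5, -0.57 to 0.207 for mt-Nd6, -0.412 to 0.255 for mt-Atp6, -0.072 to 0.0906 for Ndufa10, -0.0314 to 0.193 for Ndufs7 and -0.199 to 0.0655 for Ndufaf4. It ranged from -0.0511 to 0.106 for Sdhb, -0.0701 to 0.0673 for Sdhc, -0.00062 to 0.189 for Uqcrc1, -0.0853 to 0.0492 for Atp5b, -0.0109 to 0.101 for Atp5d, -0.0449 to 0.397 for Atp5g2, -0.0205 to 0.2 for Polrmt and -0.0045 to 0.203 for Lrpprc. DESeq2 called Cox19 and Gabpb1, which limma did not. At this depth the members under the level for testing had too few reads for a comparison.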
